A study of Homo sapiens with 27 samples.

Results

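The comparison is that of a focal adhesion kinase inhibitor with its vehicle after 14 days of treatment in a uveal melanoma (UM) cell line. Its members are 6 of the 27 mRNA libraries of the study, taken by their labels from the raw count table as the 3 libraries of FAKi at day 14 and the 3 libraries of DMSO at day 14. The cells of both groups are 92.1, an established UM line with a mutant *GNAQ*, grown in RPMI with serum. The FAKi group received 100 nM VS-4718 and the DMSO group its solvent, with medium and treatment renewed every 72 hours. The other libraries hold DMSO at day 0 and both treatments at days 3, 7 and 21, again 3 per group. A single cell line and a single dose were sequenced. The labels number the replicates without saying what a replicate is, and the methods speak of biological replicates of the complete experiment, so p-values here measure the spread between these libraries.

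Focal adhesion kinase (FAK, encoded by *PTK2*) is a tyrosine kinase that sits where integrins join the actin cytoskeleton, and it relays signals of adhesion to growth, survival and migration. In UM the mutant Gαq protein signals along a phospholipase C and protein kinase C arm to ERK, and along a TRIO and FAK arm to the coactivator YAP. VS-4718 blocks the catalytic activity of FAK. The comparison asks which genes differ in the cells after 14 days with the inhibitor.

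Total counts were between 33797191 and 34939525 in the DMSO libraries and between 25839235 and 33404647 in the FAKi libraries, so every DMSO library was deeper than every FAKi library. Genes of the mitochondrial chromosome took 22% to 27% of the counts in DMSO and 20.7% to 22.1% in FAKi. Of the 10 melanocyte lineage markers, all were expressed enough to be tested, with *PMEL* between 2467 and 4905 CPM and *TYRP1* between 4608 and 5485 CPM. Of the 34 markers of stromal, epithelial, endothelial and immune cells, 21 had fewer than 20 counts in the 6 libraries together, among them *PTPRC*, *EPCAM*, *CDH5* and *COL1A2*. The other 13 were tested. *ESRP1*, an epithelial marker, was between 47.4 and 64.6 CPM and did not pass the test (edgeR adjusted p = 0.981), and *CD68*, the 1 immune marker tested, fell by 0.37, from 43.0, 54.4 and 54.8 CPM in DMSO to 39.1, 40.0 and 38.5 CPM in FAKi. Of 6 markers of the retinal pigment epithelium, 4 were tested and *BEST1* fell by 0.39, from 1295, 1041 and 1198 CPM in DMSO to 936, 871 and 885 CPM in FAKi. These 3 markers were named after their values were seen, and the part of other cell types in the results was not tested. In bulk RNA, fewer cells of a kind and less RNA per cell cannot be told apart.

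A library of another group bears on the use of day 7. FAKi day 7 replicate 1 differed from FAKi day 14 replicate 1 by a root mean square of 0.215 in log2 CPM, and from the other FAKi day 14 libraries by 0.342 to 0.432. It differed from the other FAKi day 7 libraries by 0.708 to 0.741. The 27 pairs of libraries within a group lay between 0.228 and 0.806, so this pair across groups was closer than any pair of replicates. Fold changes at day 7 are therefore given without FAKi day 7 replicate 1 and also with it, and the fit across days holds this library unless stated. The DMSO groups of days 3 and 21 were uneven too. DMSO day 3 replicate 3 lay 0.324 from DMSO day 21 replicate 3, but 0.806 and 0.475 from DMSO day 3 replicates 1 and 2. DMSO day 21 replicate 3 lay 0.721 and 0.767 from the other libraries of its group. These libraries are kept in all values of days 3 and 21 and in the fit across days. At day 14 itself, replicates lay 0.474 to 0.565 apart in DMSO and 0.343 to 0.424 in FAKi, and libraries of different groups 0.546 to 0.645 apart.

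Of 61533 genes in the table, 23443 had at least 20 counts over the 6 libraries and were tested with edgeR's quasi-likelihood test, and adjusted p is the Benjamini-Hochberg value over these genes. A gene is said to have changed, risen or fallen where the adjusted p was 0.05 or less, and to be called where the difference was also more than 2-fold. The background of changed genes was 12.4%, or 2918 genes, with 1488 (6.35%) higher and 1430 (6.1%) lower in FAKi. Called genes were far fewer, 388 in all (1.66%), with 144 higher (0.614%) and 244 lower (1.04%). More than 4-fold differences were found for 20 called genes that rose and 46 that fell. The 2 groups of libraries did not overlap in 382 of the 388 called genes, and in 29.0% of all genes tested (14.9% above and 14.1% below). Without FAKi day 14 replicate 1, the library that FAKi day 7 replicate 1 resembled, 297 genes were called, 101 higher and 196 lower.

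Of the called genes, 276 are protein-coding, of which 109 rose and 167 fell. Long noncoding RNAs made up 76, with 21 higher and 55 lower, and pseudogenes 31, with 12 higher and 19 lower. In 57 called genes the counted exons overlap those of a gene with more counts, and the strand setting of the counting is not named, so reads of such genes may belong to the other gene. Semaphorins and plexins, the guidance genes that the study followed, supplied 2 of the 388. *PTK2*, the RNA of the target itself, was at 122, 128 and 123 CPM in DMSO and at 121, 117 and 124 CPM in FAKi (log2 fold change -0.04, standard error 0.09, edgeR adjusted p = 0.862). *PTK2B*, the related kinase PYK2, had a log2 fold change of -0.34 (edgeR adjusted p = 0.205) and *GNAQ* of -0.17 (edgeR adjusted p = 0.475). CPM are counts scaled to library size with TMM factors of the 6 libraries.

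**Figure D1:**
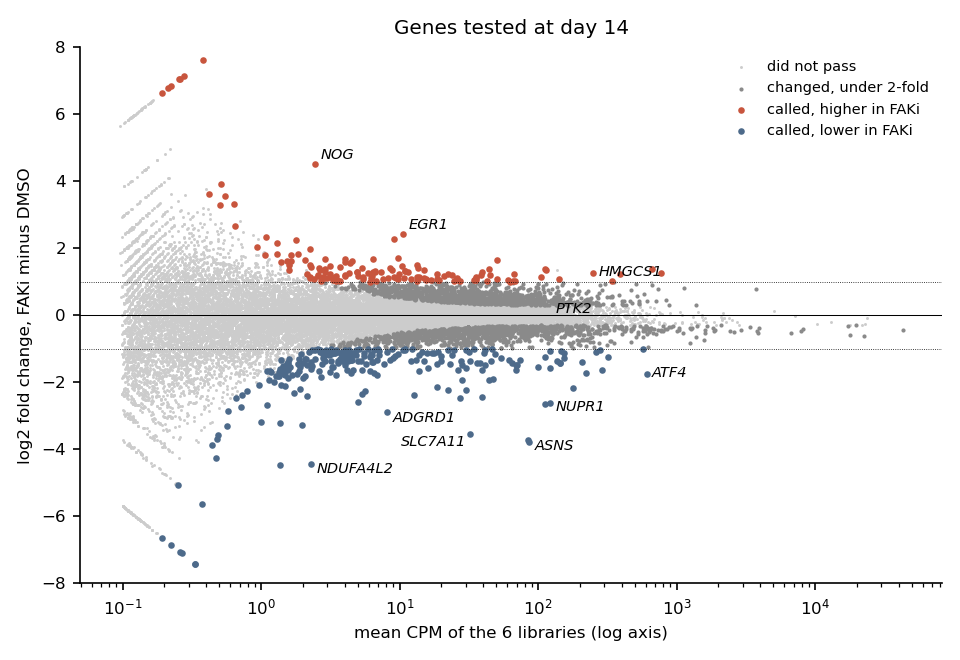
Each of the 23443 points is a gene tested at day 14, placed by its mean CPM over the 6 libraries (horizontal, log axis) and its log2 fold change in FAKi minus DMSO (vertical), with the 144 genes called higher and the 244 called lower in colour. Stress response genes such as *ASNS*, at -3.78, combine a high level with a large difference, while several of the largest changes, such as *NOG* at 4.51, belong to genes of low level.

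Genes of the integrated stress response fell together. This response is the program that cells start when amino acids run short or proteins misfold, in which phosphorylation of eIF2α favours translation of the transcription factor *ATF4* and *ATF4* then induces amino acid synthesis, transport and tRNA charging. Of 37 genes listed for this response, 34 were tested, since *PHGDH*, *SLC7A3* and *FGF21* had fewer than 20 counts. In FAKi 31 of the 34 fell, against 6.1% of all genes, and 26 were called lower, against 1.04%. The median log2 fold change of the 34 was -1.47, and that of all genes tested -0.00707. The summed level of the list was 5349, 5050 and 5398 CPM in the DMSO libraries and 2301, 2238 and 2137 CPM in the FAKi libraries, so the groups were well apart. The exceptions were *VLDLR*, a lipoprotein receptor, which rose by 0.40, and *SLC3A2* and *SLC6A9*, with log2 fold changes of -0.30 and -0.19 that did not pass the test (edgeR adjusted p = 0.0564 and 0.959). *VLDLR* lost the adjusted p limit in 4 of the 6 fits that each left out a library (edgeR adjusted p up to 0.0793).

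*ATF4* itself was among the 10 called genes of smallest p. It was at 984, 871 and 944 CPM in DMSO and at 287, 280 and 270 CPM in FAKi, a 3.35-fold difference (log2 fold change -1.74, standard error 0.09, edgeR adjusted p = 6.26e-11). The 3 FAKi libraries lay close together and far below the lowest DMSO library. Its partners fell with it, *CEBPG* by 1.5, *CEBPB* by 1.37, *DDIT3*, which encodes the proapoptotic factor CHOP, by 1.41, *ATF3* by 1.38 and the pseudokinase *TRIB3* by 1.37 on the log2 scale. The pseudogenes *ATF4P3* and *ATF4P4* were also called, at -1.64 and -1.36, and can hold reads of *ATF4*.

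The largest fall of a well expressed gene was that of *ASNS*, which makes asparagine from aspartate. Its position in hg38 is chr7:97852128-97872131, minus strand. *ASNS* was at 164, 149 and 167 CPM in DMSO and at 10.3, 11.3 and 13.6 CPM in FAKi, which is 13.7-fold lower (log2 fold change -3.78, standard error 0.12, edgeR adjusted p = 1.51e-14). No other gene tested had a smaller p. A long noncoding RNA, ENSG00000284707, shares 81.96% of the counted exon bases of *ASNS* on the same strand and fell by 3.73, so both values rest largely on the same reads. *SLC7A11*, the cystine importer that feeds glutathione synthesis, was at 45.5, 63.8 and 67.5 CPM in DMSO and at 4.48, 5.03 and 5.75 CPM in FAKi (log2 fold change -3.54, standard error 0.16, edgeR adjusted p = 3.86e-12). *NUPR1*, a small stress-induced nuclear protein, went from 202, 220 and 207 CPM to 36.4, 33.0 and 33.4 CPM (-2.61), and *CHAC1*, which degrades glutathione, from 49.1, 40.9 and 48.6 CPM to 9.59, 7.51 and 7.68 CPM (-2.48). In each of these genes all FAKi libraries were below all DMSO libraries.

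Enzymes of serine, one-carbon and sulfur amino acid metabolism fell next. *PSAT1*, the aminotransferase of serine synthesis, was at 297, 273 and 305 CPM in DMSO and at 60.6, 68.6 and 65.6 CPM in FAKi (log2 fold change -2.17, standard error 0.10, edgeR adjusted p = 5.43e-12). *PSPH*, which completes serine synthesis, fell by 1.1, and the mitochondrial folate enzymes *ALDH1L2*, *MTHFD2* and *SHMT2* fell by 2.37, 1.43 and 1.09 on the log2 scale. *CTH* and *CBS*, the enzymes of transsulfuration, fell by 2.14 and 1.56. *CBSL*, a near-identical copy of *CBS*, fell by 1.47, and reads of the 2 copies cannot be told apart. *PCK2*, the mitochondrial form of phosphoenolpyruvate carboxykinase, fell by 1.91. *PSPH* was below the 2-fold limit without FAKi day 14 replicate 3, at -0.96.

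Signaling members of the response also fell. *DDIT4*, which restrains mTORC1, was at 57.0, 44.6 and 47.7 CPM in DMSO and at 10.8, 8.76 and 11.9 CPM in FAKi (-2.25). *STC2*, a secreted glycoprotein, fell by 2.23, and *VEGFA*, the angiogenic growth factor, by 1.64, from 103, 107 and 104 CPM to 35.5, 30.2 and 34.6 CPM. The amino acid carriers *SLC7A1*, *SLC1A5*, *SLC1A4* and *SLC7A5* changed less, falling by 0.74, 0.65, 0.38 and 0.34, and *PPP1R15A*, which directs dephosphorylation of eIF2α, fell by 0.74. *SLC1A4* and *SLC7A5* lost the adjusted p limit in 4 of the 6 fits that each left out a library (edgeR adjusted p up to 0.182 and 0.14). *GDF15*, a stress cytokine, had few counts, with a mean of 2.06 CPM in DMSO and 0.569 CPM in FAKi. Its fall of 1.82 lost the adjusted p limit without DMSO replicate 1 or 2 or FAKi replicate 2 or 3, with edgeR adjusted p up to 0.153.

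**Figure D2:**
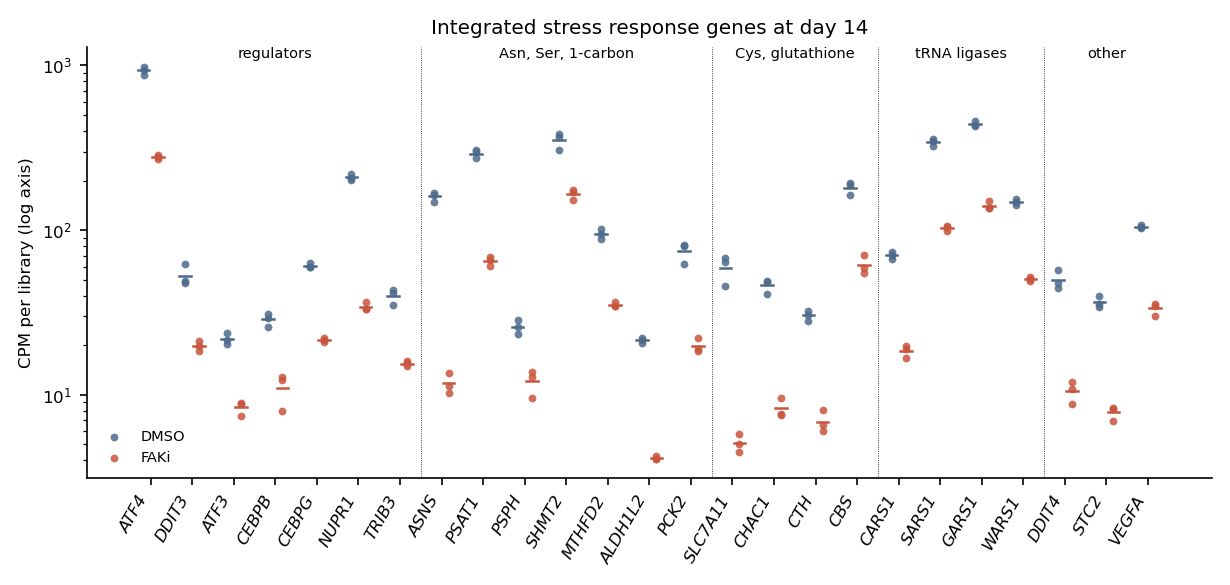
CPM (log axis) of 25 genes in each of the 6 libraries of day 14, with DMSO and FAKi in different colours. All are from the integrated stress response list except *CARS1* and *SARS1*, which are from the list of cytosolic aminoacyl-tRNA synthetases added after the fit was seen. In *ASNS*, *ATF4* and the other genes shown, the FAKi points sit together below the DMSO points, and the gap is widest for *ASNS* and *SLC7A11*.

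Aminoacyl-tRNA synthetases, which charge tRNAs with amino acids, divided by compartment. This pair of lists was added after the fit was seen, as whole families. Of 20 cytosolic synthetase genes, 12 fell, against 6.1% of all genes, and 8 of them by more than 2-fold, against 1.04%. The median log2 fold change of the 20 was -0.82, and 1 gene rose. *AARS1*, *GARS1* and *WARS1* are also members of the stress response list above. *SARS1*, for serine, was at 358, 326 and 346 CPM in DMSO and at 105, 105 and 99.0 CPM in FAKi (log2 fold change -1.74, standard error 0.10, edgeR adjusted p = 1.03e-10). *GARS1*, for glycine, went from 462, 427 and 434 CPM to 137, 136 and 149 CPM (-1.65). *CARS1* fell by 1.93, *WARS1* by 1.56, *YARS1* by 1.28, *AARS1* by 1.24, *EPRS1* by 1.14 and *MARS1* by 1.07, and *IARS1*, *TARS1*, *NARS1* and *LARS1* by 0.86 to 0.75. The riser was *VARS1*, at 0.37, whose adjusted p passed the limit in the full set but not without DMSO replicate 1 or 2 or FAKi replicate 1 or 2 (edgeR adjusted p up to 0.16). Of 17 mitochondrial synthetase genes, 0 fell, and *AARS2* rose by 0.68, with a median of 0.05 for the family. *XPOT*, which exports tRNAs from the nucleus, was chosen after its values were seen and fell by 1.39.

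Promoters of stress response genes were searched for a sequence element. The letters TGATGNAA, the composite C/EBP-ATF element to which *ATF4* dimers bind, were searched on both strands in windows from 250 bases before to 50 bases after the RefSeq transcript start (build GRCh38.p14), of which 12416 matched a gene tested at day 14. The letters were chosen after the fit was seen. They occurred in 6 of 28 stress response promoters (21.4%), in 1.72% of the promoters of genes tested and in 3.67% of all 27305 promoters. Among called genes they occurred in 11 of 134 promoters of genes that fell (8.21%) and in 2 of 92 of genes that rose (2.17%). The 11 include *ASNS*, *CHAC1*, *AARS1* and *ATF3* of the stress response list. The stress response genes with a match are *ASNS*, *CHAC1*, *AARS1*, *ATF3*, *SLC7A1* and *SLC3A2*, the last of which did not pass the test at day 14. The 250 bases before the start are printed 5′ to 3′ on the gene's strand with the match in capitals for *ASNS* (chr7:97872409-97872658, minus strand), *CHAC1* (chr15:40953221-40953470, plus strand), *AARS1* (chr16:70289507-70289756, minus strand) and *ATF3* (chr1:212565157-212565406, plus strand), since these genes fell and hold the element. TTGCATCA is the same element read on the other strand.
ASNS: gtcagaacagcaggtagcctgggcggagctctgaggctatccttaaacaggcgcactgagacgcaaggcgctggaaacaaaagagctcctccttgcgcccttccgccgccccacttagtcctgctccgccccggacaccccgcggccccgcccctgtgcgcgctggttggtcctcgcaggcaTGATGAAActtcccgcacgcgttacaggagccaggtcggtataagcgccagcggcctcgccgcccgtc
CHAC1: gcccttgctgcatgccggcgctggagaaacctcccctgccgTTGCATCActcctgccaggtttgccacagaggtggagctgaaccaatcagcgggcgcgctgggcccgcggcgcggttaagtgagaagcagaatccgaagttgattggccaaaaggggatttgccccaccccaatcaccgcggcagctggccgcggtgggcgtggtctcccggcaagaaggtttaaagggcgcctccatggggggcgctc
AARS1: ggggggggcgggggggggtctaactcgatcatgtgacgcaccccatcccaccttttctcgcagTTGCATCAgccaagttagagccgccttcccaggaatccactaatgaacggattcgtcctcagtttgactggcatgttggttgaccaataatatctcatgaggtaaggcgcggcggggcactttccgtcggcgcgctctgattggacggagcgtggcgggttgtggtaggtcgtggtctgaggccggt
ATF3: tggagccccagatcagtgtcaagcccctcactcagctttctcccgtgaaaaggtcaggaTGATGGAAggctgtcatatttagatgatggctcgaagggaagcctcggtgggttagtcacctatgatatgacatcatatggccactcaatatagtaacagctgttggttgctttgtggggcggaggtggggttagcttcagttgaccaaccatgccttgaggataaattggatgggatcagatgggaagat

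The match in *ASNS* begins 68 bases before the start, and those in *AARS1*, *ATF3* and *CHAC1* begin 187, 191 and 209 bases before it. A match is a description of these letters and not a measured binding site.

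The stress response values at day 14 were set against the other days, each of which has its own DMSO libraries. The median log2 fold change of the 34 genes was 0.01 at day 3, 0.01 at day 7 without FAKi day 7 replicate 1 (-0.41 with it) and -0.20 at day 21. On the scale of all 27 libraries, the DMSO libraries of day 14 had 168 ± 9.05 CPM of *ASNS* (SD, n = 3 in this and the following means) and between 305 and 550 CPM in the DMSO groups of the other days. In FAKi it was at 12.4 ± 1.81 CPM at day 14, 340 ± 16.2 CPM at day 3 and 246.5 ± 20.1 CPM at day 21. *ASNS* was lower in FAKi at day 21 too, with 569, 552 and 529 CPM in DMSO and 269, 241 and 230 CPM in FAKi. At that day 12 of the 34 genes were lower and 3 higher at an unadjusted edgeR p under 0.05, beside 3892 and 3504 of 21926 genes. At day 7 the FAKi mean of *ASNS* was 308 CPM without replicate 1, and replicate 1 alone was at 12.3 CPM. *ATF4* was at 294 ± 8.28 CPM in FAKi at day 14, and its means in the other groups, with FAKi day 7 taken without replicate 1, ran from 979.9 to 1670.0 CPM. The difference between the effect at day 14 and the mean effect at days 3, 7 and 21 was tested in 1 fit of the 24 libraries, and where its adjusted p was 0.05 or less it was negative for 20 of the 34 genes, among 3.08% of all genes tested, and positive for 1. For *ASNS* this difference was -3.07 (edgeR adjusted p = 0.00435).

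**Figure D3:**
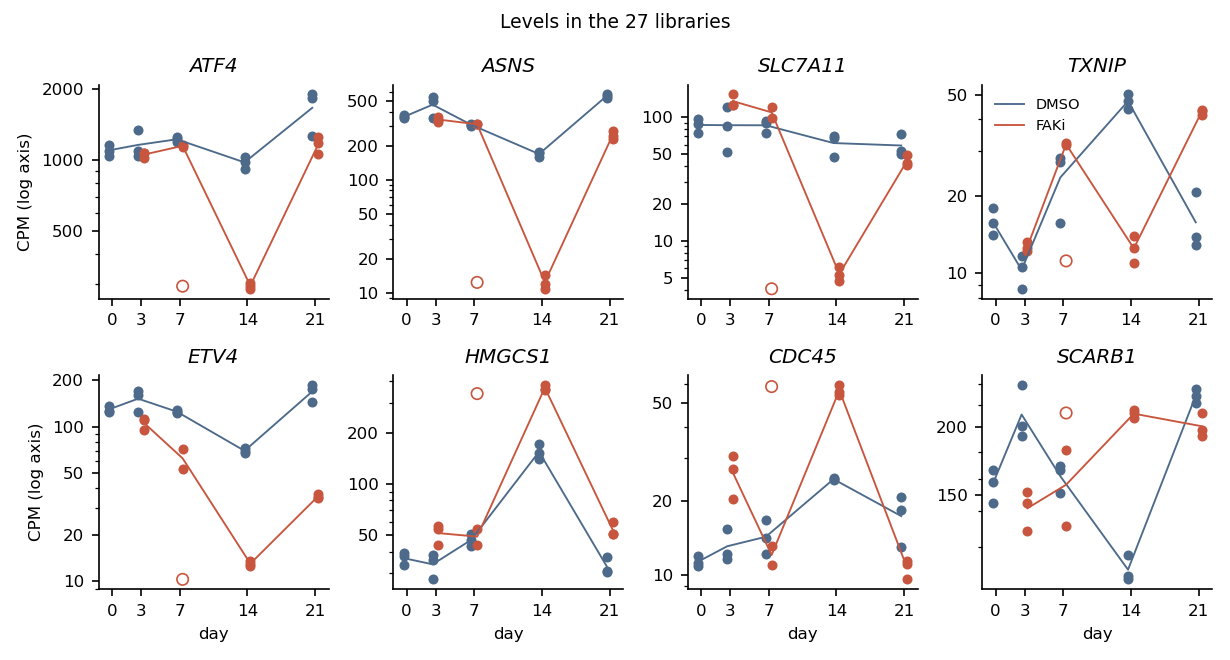
CPM (log axes) of 8 genes in all 27 libraries by day, with dots for libraries and lines through the group means of DMSO and FAKi. The open circle is FAKi day 7 replicate 1, which is left out of the FAKi line and lies at the level of FAKi day 14, for *ASNS* at 12.3 CPM against 12.4 CPM. *ETV4* is lower in FAKi on each day drawn after day 0. The FAKi lines of *ASNS* and *ATF4* are lowest at day 14, and both genes are also lower in FAKi than in DMSO at day 21.

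Cholesterol genes moved the other way. Sterol synthesis runs from acetyl-CoA over HMG-CoA and mevalonate to squalene and cholesterol, and its genes rise together when sterol in the endoplasmic reticulum is low and SCAP escorts SREBP-2 to the Golgi for activation. Of 28 genes tested, 21 rose, against 6.35% of all genes, 8 were called higher, against 0.614%, and 0 fell. The median log2 fold change was 0.64. Their summed level was 2040, 2001 and 1964 CPM in DMSO and 3078, 3043 and 3020 CPM in FAKi, without overlap. *HMGCS1*, which makes HMG-CoA, was at 145, 162 and 134 CPM in DMSO and at 339, 345 and 362 CPM in FAKi (log2 fold change 1.25, standard error 0.10, edgeR adjusted p = 2.49e-08). Other genes called were *HSD17B7* (1.40), *MVK* (1.11), *MVD* (1.1), *IDI1* (1.09), *MSMO1* (1.05) and *DHCR7* (1.01).

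Among genes that rose by less than 2-fold, *SQLE*, which oxidizes squalene, rose by 0.66 and *INSIG1*, which holds SREBP back, by 0.82. *SREBF2* and *SREBF1*, which encode the SREBPs, had log2 fold changes of 0.14 and 0.07 and did not pass the test (edgeR adjusted p = 0.456 and 0.762), nor did *FDFT1*, *PMVK*, *TM7SF2*, *MYLIP* or *ABCA1*. *FASN*, the fatty acid synthase, was at 311, 370 and 371 CPM in DMSO and at 750, 700 and 567 CPM in FAKi (0.94), and *IDH1*, the cytosolic source of NADPH, rose by 1.23. *DHCR7* fell just under 2-fold without DMSO replicate 1 or 2 or FAKi replicate 1 (0.96 to 0.98), and *MVD* without FAKi replicate 1 (0.95). With all 27 libraries in a single fit, which takes the spread from every group, 11 of the 28 rose. The shares of all genes that rose or fell in that fit, or in fits that left out a library, are not reported here. Counts of list members from those fits, here and below, therefore have no background beside them.

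On the scale of all 27 libraries, both groups of day 14 stood apart from the other days for *HMGCS1*. DMSO at day 14 was at 154.5 ± 16 CPM, and DMSO at the other days between 32.8 and 47.0 CPM. FAKi at day 14 was at 368 ± 13.1 CPM, and FAKi at days 3 and 21 at 51.4 ± 6.94 and 54.0 ± 5.29 CPM. The median effect on the list was 0.02 at day 3, -0.16 at day 7 without FAKi day 7 replicate 1 (0.24 with it) and -0.04 at day 21. Compared with the mean effect at those days, the effect at day 14 was higher for 5 of the 28 genes, among 3.66% of all genes, and lower for 0.

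DNA replication genes rose as a group. E2F factors drive genes for nucleotide supply and the MCM helicase before S phase. All 51 listed genes of G1/S and replication were tested, 40 rose, against 6.35% of all genes, and 0 fell. Their median log2 fold change was 0.73. More than 2-fold increases were found for *E2F2* (1.32), *E2F8* (1.29), *CDC45* (1.2), *CDC6* (1.09) and *CHAF1B* (1.04). *CDC45*, a subunit of the active helicase, was at 23.6, 23.2 and 23.3 CPM in DMSO and at 56.5, 51.5 and 52.9 CPM in FAKi (standard error 0.11, edgeR adjusted p = 1.65e-07). *MCM4*, of the same helicase, went from 209, 198 and 181 CPM to 371, 356 and 372 CPM (0.90), *TYMS* and *RRM2*, which supply deoxynucleotides, rose by 0.87 and 0.82, and *PCNA*, the replication clamp, by 0.73. *CHAF1B* was at or under 2-fold without DMSO replicate 1 or 3 or FAKi replicate 2 (0.87 to 1.00).

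Genes of mitosis rose less. Of 61 genes of the spindle and kinetochore, 31 rose, against 6.35% of all genes, and 0 fell. The median was 0.37, and 2 were called higher, against 0.614% of all genes, *CENPM* (1.11) and *CENPI* (1.09). *CENPM* had few counts and was at 0.90 without DMSO replicate 2. *FOXM1*, a factor that drives mitotic genes, was at 57.3, 73.3 and 76 CPM in DMSO and at 130, 139 and 126 CPM in FAKi (0.94). *MYBL2*, another such factor, was at 60.1, 60.5 and 65.3 CPM in DMSO and at 170, 169 and 143 CPM in FAKi (log2 fold change 1.38, standard error 0.10, edgeR adjusted p = 1.16e-08). *MYBL2* is in neither the mitotic nor the replication list and does not enter their counts. *CDC20*, *AURKB*, *CDK1* and *CCNB1* rose by 0.60, 0.64, 0.65 and 0.39, and *CCNB1* lost the adjusted p limit without DMSO replicate 2 or FAKi replicate 2 or 3 (edgeR adjusted p up to 0.138). *MKI67*, the proliferation marker Ki-67, was at 99.0, 162 and 165 CPM in DMSO and at 197, 193 and 200 CPM in FAKi (0.47), and without its lowest DMSO library the difference was 0.26. It lost the adjusted p limit without FAKi replicate 1, 2 or 3 (edgeR adjusted p = 0.104, 0.0851 and 0.106). With all 27 libraries in a single fit, 11 replication and 9 mitotic genes rose.

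Among genes that hold the cycle back, *CDKN1C*, the CDK inhibitor p57, was at 6.73, 4.83 and 7.49 CPM in DMSO and at 2.23, 1.55 and 2.38 CPM in FAKi (log2 fold change -1.63, standard error 0.27, edgeR adjusted p = 0.000324). *CDKN1A*, the inhibitor p21, fell by 0.49. Of 28 tested p53 targets, 12 fell, against 6.1% of all genes, and 1 rose, *DDB2* by 0.56. The median of these targets was -0.22, and 6 fell with all 27 libraries in a single fit. *BTG2*, an antiproliferative gene, fell by 0.95, *PMAIP1*, the BH3 protein NOXA, by 1.47, and *MDM2*, the ligase that limits p53, by 0.35. *MDM2* lost the adjusted p limit in 5 of the 6 fits that each left out a library (edgeR adjusted p up to 0.218). The D cyclins split, with *CCND1* down by 0.44 and *CCND3* up by 0.90, from 30.1, 22.9 and 17.7 CPM to 44.5, 50.4 and 36.9 CPM.

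At the other days the replication list did not keep its direction. Its median log2 fold change was 0.51 at day 3, -0.19 at day 7 without FAKi day 7 replicate 1 (0.52 with it) and -0.41 at day 21, where 41 of the 51 values were below 0. The mitotic list had medians of 0.80 at day 3, -0.21 at day 7 without that library (0.13 with it) and -0.41 at day 21. The test of the effect at day 14 against the mean of the other days passed for 0 of the 51 replication genes and for 8 of the 61 mitotic genes. All 8 were higher at day 14 than that mean, among 3.66% of all genes, and 3.08% of all genes were lower. The mitotic median at day 14, 0.37, was itself below that at day 3.

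Promoters of these groups were searched for CCAAT, bound by NF-Y, and TTTGAA, the core of the cell cycle homology region, on both strands of the same windows. The letters CCAAT occurred in 16 of 22 promoters of cholesterol genes tested (72.7%), in 24 of 42 of replication genes tested (57.1%) and in 39 of 51 of mitotic genes tested (76.5%), compared with 36.4% of the promoters of genes tested and 35.7% of all promoters. TTTGAA occurred in 37 of 51 mitotic promoters (72.5%), in 2.38% of the replication promoters, in 10.1% of those of genes tested and in 15.4% of all. Stress response promoters held CCAAT in 60.7%. The sterol regulatory element in the form TCACNCCAC, letters chosen after the fit was seen, occurred in the promoter of 1 of 22 cholesterol genes, *SREBF2*. It occurred in 0 of 16 promoters of the cholesterol genes that rose and in 1.12% of the promoters of genes tested. The 250 bases before the start of *HMGCS1* (chr5:43313413-43313662, minus strand), *CDC45* (chr22:19479670-19479919, plus strand) and *CDK1* (chr10:60778081-60778330, plus strand) show 1 promoter for each of the 3 groups, with CCAAT on either strand and, in *CDK1*, TTTGAA in capitals.
HMGCS1: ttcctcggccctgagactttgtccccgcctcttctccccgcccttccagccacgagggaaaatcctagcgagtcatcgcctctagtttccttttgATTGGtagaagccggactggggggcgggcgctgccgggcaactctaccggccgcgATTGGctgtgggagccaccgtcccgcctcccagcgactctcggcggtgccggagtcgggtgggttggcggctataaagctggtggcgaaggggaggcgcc
CDC45: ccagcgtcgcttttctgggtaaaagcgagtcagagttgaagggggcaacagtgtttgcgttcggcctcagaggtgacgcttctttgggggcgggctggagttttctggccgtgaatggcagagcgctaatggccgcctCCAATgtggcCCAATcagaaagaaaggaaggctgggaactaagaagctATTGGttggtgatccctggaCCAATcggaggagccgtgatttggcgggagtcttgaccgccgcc
CDK1: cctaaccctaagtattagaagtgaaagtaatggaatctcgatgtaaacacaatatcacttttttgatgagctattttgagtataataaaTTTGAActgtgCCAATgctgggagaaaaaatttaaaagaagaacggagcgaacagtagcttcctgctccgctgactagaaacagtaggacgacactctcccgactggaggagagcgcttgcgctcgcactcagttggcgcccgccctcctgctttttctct

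The 2 matches in *HMGCS1* begin 155 and 100 bases before the start and the 4 in *CDC45* between 112 and 44 bases before it. In *CDK1*, TTTGAA begins 161 bases and CCAAT 150 bases before the start. None of the marked matches overlap. These shares describe the lists, and a link of the letters to the rise at day 14 was not tested.

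**Figure D4:**
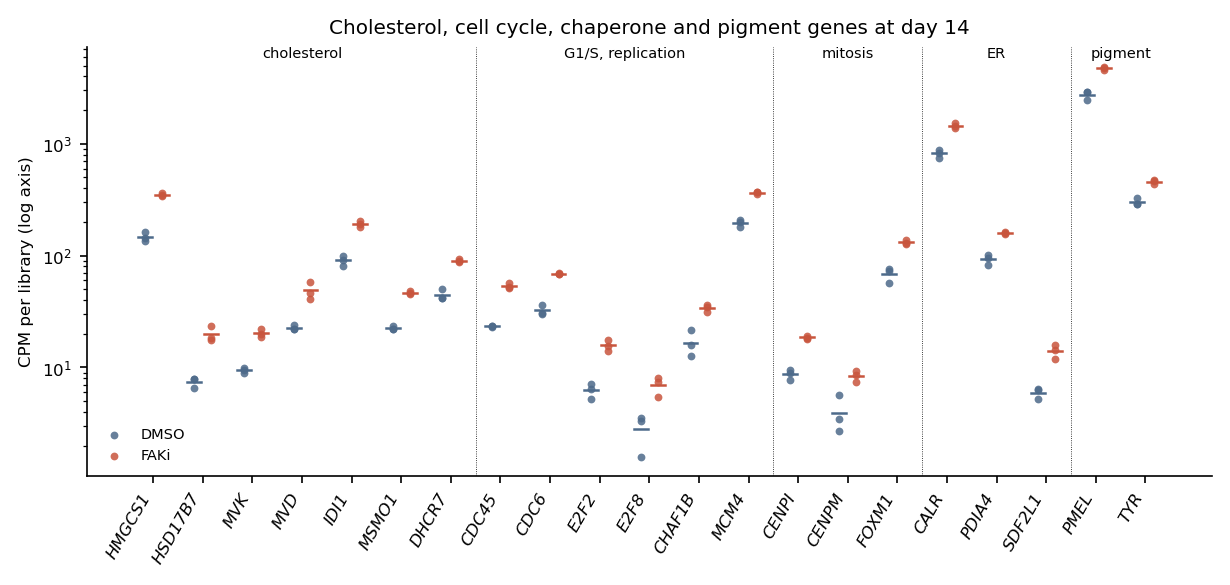
CPM (log axis) of 21 cholesterol, cell cycle, endoplasmic reticulum and pigment genes in each of the 6 libraries of day 14. FAKi points lie above DMSO points in each gene shown, by about the same distance for *HMGCS1* (1.25 on the log2 scale) and *CDC45* (1.2) and by less for *PMEL* (0.78).

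Of 27 chaperones of the endoplasmic reticulum, 13 rose and 1 fell, where 6.35% of all genes rose and 6.1% fell. *CALR*, the chaperone calreticulin, was at 886, 819 and 754 CPM in DMSO and at 1525, 1445 and 1377 CPM in FAKi (log2 fold change 0.82, standard error 0.09, edgeR adjusted p = 3.59e-06). *PDIA4* rose by 0.78, *HSPA5*, the chaperone BiP, by 0.58 and *SDF2L1*, the 1 gene of the list that was called, by 1.24, while *HERPUD1*, which serves degradation, fell by 0.64. Of 23 pigment and melanosome genes, 8 rose and 0 fell. *PMEL*, which builds the fibrils of the melanosome, was at 2874, 2467 and 2906 CPM in DMSO and at 4574, 4905 and 4712 CPM in FAKi (0.78). *TRPM1*, *TYR* and *OCA2* rose by 0.86, 0.60 and 0.59. Of 14 melanocyte identity transcription factors tested, 0 rose and 4 fell, *ETV5* by 1.34, the 1 that was called, *ETV1* by 0.86, *PAX3* by 0.37 and *ZEB2* by 0.33, the last 2 named after their values were seen. *MITF* and *SOX10*, of the same list, did not pass the test, with 233, 245 and 231 CPM in DMSO and 222, 232 and 237 CPM in FAKi for *MITF*.

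Lysosomal genes gave 13 of 41 higher, led by *GLA* (0.77), *NEU1* (0.60) and *CTSC* (0.59), and 0 lower. Of 24 glycolytic enzymes 10 rose, among them *ENO1* (0.42), *PKM* (0.44) and *LDHA* (0.41), and 2 fell, and *LDHA* lost the adjusted p limit without DMSO replicate 2 or FAKi replicate 1 or 3 (edgeR adjusted p up to 0.097). Of 38 actin and myosin genes 10 rose and 1 fell. Over all genes 6.35% rose and 6.1% fell. *ACTB*, which encodes β-actin and often serves as a reference gene, was at 484, 417 and 494 CPM in DMSO and at 913, 857 and 830 CPM in FAKi (log2 fold change 0.90, standard error 0.10, edgeR adjusted p = 1.91e-06). These 3 counts moved with single libraries. Leaving out FAKi replicate 1 or 2 gave 5 and 5 lysosomal, 3 and 5 glycolytic, and 6 and 4 actin genes, and without DMSO replicate 2 there were 7 lysosomal and 5 glycolytic genes. With all 27 libraries in a single fit, 7 chaperone, 4 pigment, 3 lysosomal, 1 glycolytic and 5 actin genes rose. The 6.35% and 6.1% belong to the fit of the 6 libraries and are not the background of these counts.

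Of 79 ribosomal protein genes 29 fell and 0 rose, where 6.1% of all genes fell. Their median log2 fold change was -0.28, and 0 were called. *RPL26* was at 2473, 1703 and 1786 CPM in DMSO and at 1209, 1118 and 1219 CPM in FAKi (-0.75). DMSO replicate 1 stood above its group, with 76860 CPM summed over the list against 55370 and 64130 CPM in the other DMSO libraries and 52630 to 53640 CPM in FAKi. Without it the median was -0.14 and 17 genes fell, without DMSO replicate 2 the median was -0.39 and 47 fell, and without a FAKi library 8 to 16 fell. The 13 protein-coding genes of the mitochondrial chromosome gave 9 lower and 0 higher, with a median of -0.41, and 2 to 5 lower without a FAKi library. *MT-ND2* was at 21669, 29589 and 30720 CPM in DMSO and at 17435, 18479 and 17790 CPM in FAKi. Here DMSO replicate 1 was the lowest of its group, the reverse of the ribosomal genes. In a single fit of all 27 libraries 1 ribosomal and 0 mitochondrial genes fell.

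ERK pathway feedback genes, which report the activity of that kinase, leaned lower. Of 27 tested, 11 fell and 3 rose, with a median of -0.44, where 6.1% of all genes fell and 6.35% rose. *ETV4*, a PEA3-type ETS factor induced by ERK, was at 66.5, 63.7 and 69.9 CPM in DMSO and at 12.4, 11.9 and 12.8 CPM in FAKi (log2 fold change -2.43, standard error 0.11, edgeR adjusted p = 5.43e-12). Its relatives *ETV5* and *ETV1* fell by 1.34 and 0.86. The feedback inhibitors *DUSP6*, *SPRED1* and *SPRY4* fell by 0.76, 0.70 and 0.62, and *DUSP10*, a phosphatase of p38 and JNK, by 1.55. *EGR1*, an immediate early gene on the same list, went the other way, from 3.43, 2.85 and 3.78 CPM in DMSO to 21.5, 12.4 and 19.4 CPM in FAKi (log2 fold change 2.41, standard error 0.21, edgeR adjusted p = 9.46e-08). *DUSP4* and *EPHA4* rose by 0.44 and 1.32. *DUSP10* lost the adjusted p limit without FAKi replicate 1 (edgeR adjusted p = 0.0721) or DMSO replicate 3 (edgeR adjusted p = 0.0501).

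*ETV4* had negative values on all days, with log2 fold changes of -0.51 at day 3, -1.01 at day 7 without FAKi day 7 replicate 1 (-1.48 with it) and -2.20 at day 21. The difference between day 14 and the mean of those effects did not pass the test (edgeR adjusted p = 0.0963). *RGS2*, which speeds hydrolysis of GTP on Gαq, had values of -1.85, -1.37, -1.66 and -2.15 at days 3, 7, 14 and 21, again without that library at day 7 (-1.27 with it). It was at 8.87, 9.08 and 9.84 CPM in DMSO and at 3.51, 2.81 and 2.45 CPM in FAKi at day 14 (edgeR adjusted p = 2.36e-05). *ITGA9*, an integrin subunit, had positive values on each day, of 1.5, 1.22, 1.23 and 1.42, and so did *ID2*, of 0.84, 0.92, 0.74 and 0.83. With that library the day 7 values of *ITGA9* and *ID2* were 1.45 and 1.26.

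The lists closest to the target of the drug are those of the focal adhesion plaque, of YAP and of Gq signaling. Of 34 genes of the focal adhesion plaque, 2 rose, *FLNA* by 0.98 and *ACTN1* by 0.39, and 3 fell, *ENAH* by 0.62, *LPP* by 0.56 and *TNS3* by 0.40. Of the 6 fits that each left out a library, *ACTN1* lost the adjusted p limit in 3, *LPP* in 2 and *TNS3* in 4, with edgeR adjusted p up to 0.14, 0.0568 and 0.108. *FLNA*, the actin crosslinker filamin A, was at 205, 261 and 243 CPM in DMSO and at 501, 493 and 408 CPM in FAKi. Of 23 tested YAP and TEAD targets, 4 rose and 3 fell, with a median of -0.05. *CCN1*, a matricellular YAP target, was at 4.45, 5.91 and 5.37 CPM in DMSO and at 13.4, 10.9 and 9.35 CPM in FAKi (1.1), *FOXF2* rose by 1.2 and *AJUBA*, a LIM protein, fell by 1.13. Of 42 genes of the Gq, phospholipase C and PKC pathway, 4 rose, among them *PRKCA* (0.52) and *GNA11* (0.46), and 5 fell, among them *PLCB2* (-0.68), *PLCB4* (-0.66) and *RASGRP3* (-0.59). *GNA11* lost the adjusted p limit without FAKi replicate 1 or 2 (edgeR adjusted p = 0.0998 and 0.129), and *PLCB4* without either of these or DMSO replicate 2 (edgeR adjusted p up to 0.129). As shares of the genes tested, 5.88% rose and 8.82% fell in the plaque list, 17.4% and 13% in the YAP list and 9.52% and 11.9% in the Gq list, beside 6.35% and 6.1% of all genes. *CCN1* was just under 2-fold without DMSO replicate 1 or FAKi replicate 1 (0.99 and 0.95).

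BMP signaling held the largest rise in the comparison among called genes with a symbol and a mean of at least 1 CPM in the higher group, semaphorins and plexins aside. *NOG*, whose product noggin binds and blocks BMPs, was at 0.451, 0.03 and 0.125 CPM in DMSO and at 5.77, 4 and 4.31 CPM in FAKi (log2 fold change 4.51, standard error 0.52, edgeR adjusted p = 5.7e-06). *NOG* was thus nearly silent in each DMSO library and clearly counted in each FAKi library. *ID3*, a direct BMP target that blocks bHLH factors, was at 28.9, 20.7 and 24.3 CPM in DMSO and at 67.4, 67.2 and 58.8 CPM in FAKi (1.39), *ID2* and *ID1* rose by 0.74 and 0.71 and *SMAD9*, a BMP-type SMAD, by 1.15. In the list of TGF-β, BMP and ID genes 9 of 43 rose and 3 fell (20.9% and 6.98%), beside 6.35% and 6.1% of all genes. *SMAD9* was at 0.98 without DMSO replicate 3 and at 0.97 without FAKi replicate 3.

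Other genes with the largest rises, by the rule of at least 1 CPM in the higher group, were *LMO7DN*, *SPSB4*, *FOXF2-DT*, *EGR1*, *STON2*, *AMD1P3*, *EPHA7*, *RCAN2*, *TMCC3*, *ELOCP3*, *FCRLA*, *FXYD6* and *TUBB2BP1*. *STON2*, an endocytic adaptor, was at 0.511, 0.839 and 0.5 CPM in DMSO and at 3.6, 2.81 and 2.45 CPM in FAKi (2.25), so that the groups did not overlap. *RCAN2*, a regulator of calcineurin, rose by 1.96, *FCRLA* by 1.71 and *FXYD6*, a partner of the sodium pump, by 1.68. *AMD1P3* shares 62.98% of its exon bases with another gene on the same strand, and *FXYD6* 29.32% with a gene on the opposite strand. Genes with the largest falls were *SLC7A11-AS1*, *NDUFA4L2*, *ASNS*, *SLC7A11*, *NOX5*, *MAPT*, *ADGRD1*, *C11orf65*, *FABP7*, *GABRA5*, *NUPR1*, *NAT16*, *CHAC1* and *ETV4*. *NDUFA4L2*, a hypoxia-induced mitochondrial protein, was at 4.66, 4.38 and 4.03 CPM in DMSO and at 0.171, 0.198 and 0.223 CPM in FAKi (log2 fold change -4.45, standard error 0.41, edgeR adjusted p = 2.1e-07). *NOX5*, a calcium-gated NADPH oxidase, fell by 3.28 and *MAPT*, the microtubule protein tau, by 3.22. *SLC7A11-AS1* overlaps *SLC7A11* on the opposite strand, and its fall of 4.47 cannot be told apart from that of *SLC7A11*.

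Of the 30 genes that the rule took for the largest changes, 10 lost the adjusted p limit when a library was left out, among them *AMD1P3* in 2 of 6 cases, *FABP7* and *TMCC3* in 3, *EPHA7* and *LMO7DN* in 4 and *C11orf65*, *ELOCP3*, *FOXF2-DT* and *SPSB4* in 5. Each of the 6 libraries was decisive for at least 1 of them, and the largest adjusted p, 0.296, was that of *SPSB4* without FAKi replicate 3. All 10 were low, with means of at most 2.14 CPM in the higher group.

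Called genes of the cell surface and matrix were spread over several lists. The adhesion GPCRs gave 3 of 13 lower, each by more than 2-fold, against 1.04% of all genes. *ADGRD1* was at 11.2, 14.4 and 17.1 CPM in DMSO and at 1.40, 2.55 and 1.82 CPM in FAKi (log2 fold change -2.89, standard error 0.24, edgeR adjusted p = 3.77e-08), and *ADGRG1* was at -2.26. The third, *ADGRB3* (-1.23), had FAKi replicate 3 among the DMSO values and lost the adjusted p limit without DMSO replicate 1 or 2 or FAKi replicate 1 or 2 (edgeR adjusted p up to 0.221). The neural adhesion genes *L1CAM* and *NRCAM* fell by 1.81 and 1.63, and *MAP1B*, a microtubule protein of neurites, by 2.31. *BGN*, the proteoglycan biglycan, was at 42.0, 44.3 and 34.1 CPM in DMSO and at 12.4, 12.1 and 14.5 CPM in FAKi (-1.63). *DDR2*, a collagen receptor kinase, fell by 1.42, from 185, 218 and 229 CPM to 79.1, 76.3 and 80.3 CPM, while *NTRK2*, a neurotrophin receptor, rose by 1.13. Of genes for hyaluronan turnover, *HYAL1* and *CEMIP*, which degrade it, rose by 1.26 each, and *HAS2*, which makes it, by 1.04. *LAMA1* and *LAMA3*, chains of laminin, rose by 1.04 and 1.24, and *LAMA1* was at 0.93 without DMSO replicate 1. *HAS2* lost the adjusted p limit without DMSO replicate 2 or FAKi replicate 2 (edgeR adjusted p = 0.0615 and 0.117), and *MAP1B* without DMSO replicate 2 (edgeR adjusted p = 0.0512).

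In the NOTCH list 5 of 22 genes rose, among them *LFNG* and *HES6* by 1.59 and 1.04, and 2 fell, among them *NRARP*, a feedback inhibitor, by 1.04. Of 31 WNT genes tested, 5 fell, among them *SFRP1* by 0.85 and *FZD7* by 0.63, and 0 rose. Of 29 long noncoding RNAs named in melanoma or of the nucleus, 10 fell and 1 rose, with *MALAT1* down by 0.52, *NORAD* by 0.60 and *ZFAS1* by 0.90. In *ZFAS1*, DMSO replicate 1 (369 CPM) was above the other DMSO libraries (231 and 272 CPM), as in the ribosomal list. The hypoxia list gave 5 of 23 lower and 0 higher, and 3 of the 5, *DDIT4*, *STC2* and *VEGFA*, are also stress response genes. Nuclear genes of oxidative phosphorylation gave 8 of 76 higher and 3 lower (10.5% and 3.95%). Heat shock genes gave 2 of 30 higher and 3 lower (6.67% and 10%), and interferon-stimulated genes 2 of 37 higher and 4 lower (5.41% and 10.8%). Over all genes 6.35% rose and 6.1% fell, the background for each list of this paragraph.

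**Figure D5:**
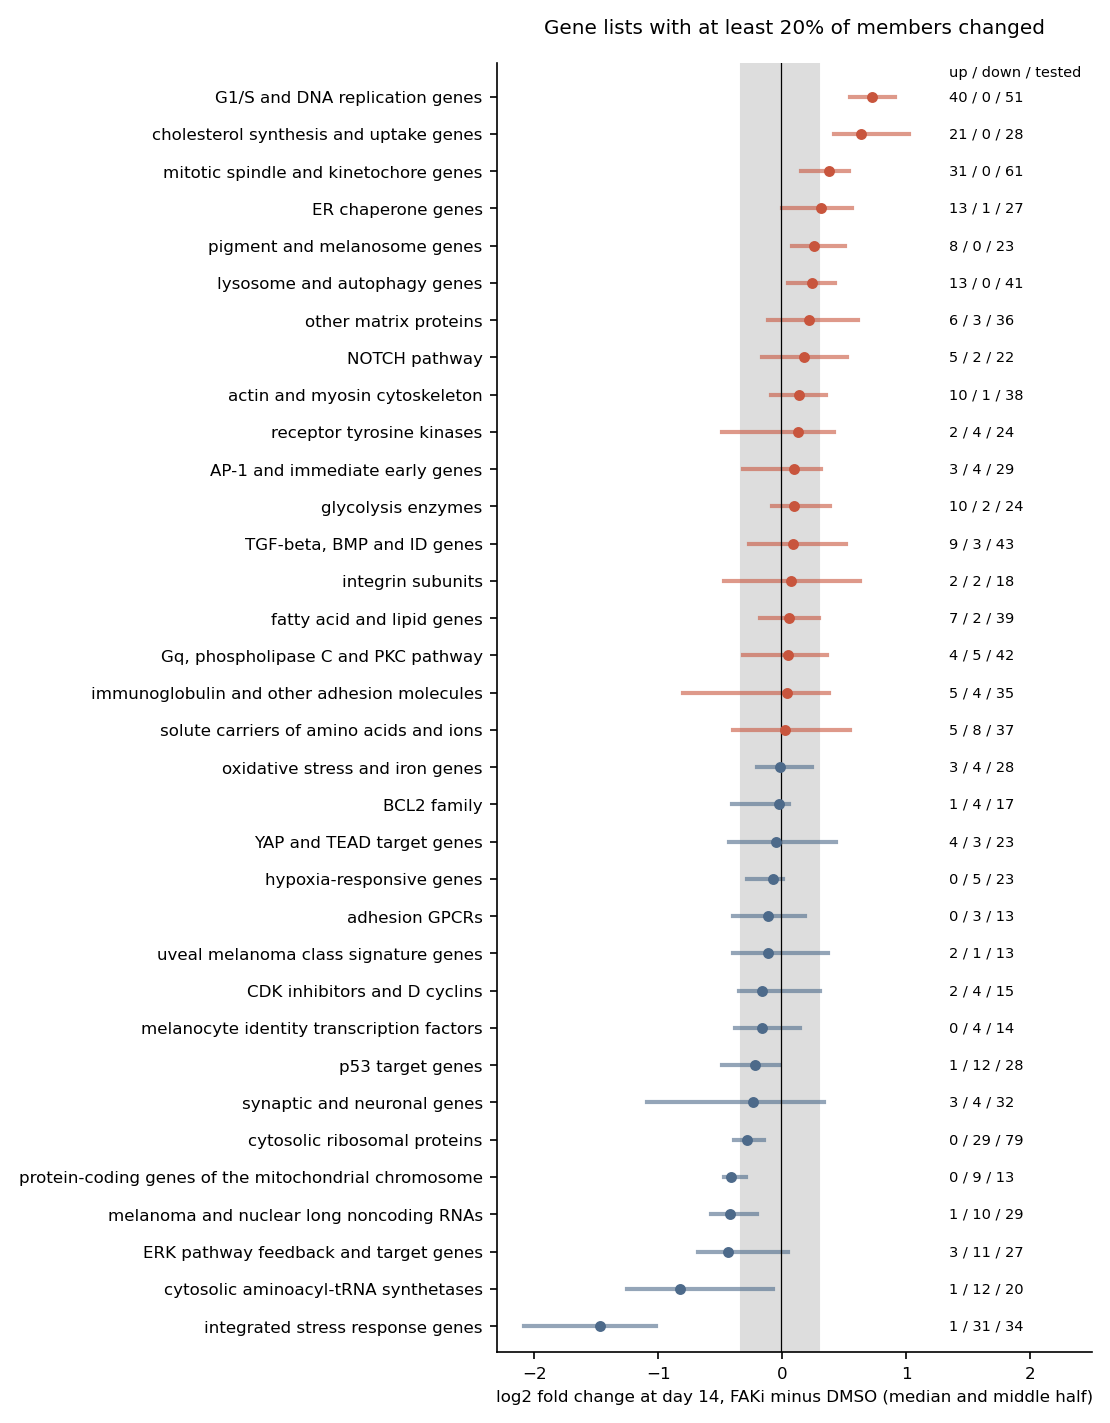
Median (dot) and interquartile range (bar) of the log2 fold changes of 34 gene lists with at least 20% of their tested members changed at day 14, beside the counts that rose, fell and were tested. The grey band is the interquartile range of all 23443 genes. The stress response list lies far to the left at -1.47, the replication list at 0.73 and the cholesterol list at 0.64 lie to the right.

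Across the other days, the called genes kept their direction to a varying degree. Of the genes called higher at day 14, 62.4% had a log2 fold change above 0 at day 3, 58.3% at day 7 without FAKi day 7 replicate 1 (90.9% with it) and 51.8% at day 21, where the shares over all genes were 48.9%, 49.9% (52.1% with it) and 51.2%. Of those called lower, 52.1%, 63.6% (82% with it) and 61.7% were below 0, where the shares over all genes were 51.1%, 50.1% (47.9% with it) and 48.8%. Of the 144 genes called higher, 16 had an adjusted p of 0.05 or less in the same direction at day 21, and of the 244 called lower, 54 had (background 5.55% and 6.6%).

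The effect at day 14 was then compared with the mean of the effects at days 3, 7 and 21 in 1 fit over 24 libraries. Of 27897 genes tested, 802 (2.87%) differed by more than 2-fold and passed the adjusted p limit, 386 with a higher and 416 with a lower effect at day 14. Without FAKi day 7 replicate 1 there were 1184, without FAKi day 14 replicate 1 there were 461 and without FAKi day 14 replicate 2 there were 408. *TXNIP*, an α-arrestin that curbs glucose uptake, led the named genes with a lower effect. It fell at day 14, from 42.1, 47.4 and 45.3 CPM in DMSO to 10.4, 13.3 and 11.9 CPM in FAKi (log2 fold change -1.92, standard error 0.13, edgeR adjusted p = 1.84e-09), and its log2 fold change was 0.32 at day 3, 0.43 at day 7 without FAKi day 7 replicate 1 (0.07 with it) and 1.49 at day 21. *ARRDC4*, its paralog and chosen after its values were seen, fell by 1.79. Of the other genes named by this contrast, *ACTB*, *SCARB1*, *IGFBPL1*, *ZDHHC2* and *TMEM106C* had a higher effect and *NAT16*, *ZMAT1*, *SMC1B* and *CEP63* a lower effect at day 14.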

How the data were processed

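RNA of 92.1 cells was made into stranded poly(A) libraries, of which the 3 FAKi and 3 DMSO libraries of day 14 were compared. According to the study's methods and the submitters' processing notes, the authors trimmed reads with Trim Galore, checked them with FastQC 0.11.8, aligned them to hg38 with STAR 2.5.3a and used HOMER to make the deposited raw counts over exons, with 1 GENCODE 39 transcript per gene. The strand setting of that counting is not given in the sources used here. Every count column was matched to a sample by its name.

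Genes with at least 20 counts over the 6 libraries were tested with the quasi-likelihood test of edgeR 4.0.16 (R 4.3.3) after TMM normalization, and p-values were adjusted by the Benjamini-Hochberg method over all genes tested. A second fit over 24 libraries tested the effect at day 14 against the mean effect at days 3, 7 and 21. The fits were tested on simulated counts. DESeq2 1.42.0, other normalizations and filters, a replicate block and leaving out each library were tried as alternatives. Named genes were the 15 largest and 15 smallest log2 fold changes among called genes with a symbol and at least 1 CPM in the higher group, without semaphorins and plexins, the 10 called genes of smallest p, PTK2, PTK2B and GNAQ, the 5 genes of smallest p in each direction of the second fit with at least 1 CPM, and members of described lists, with called genes and small p first. Some genes that this rule named are not reported here. The comparison, the lists and the named genes were chosen with earlier results of these data known. Promoters are those of RefSeq (GRCh38.p14). Totals of 25839235 to 34939525 counts per library limit the precision of genes under 1 CPM most.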

Additional observations from a re-analysis of the deposited data

Results flagged for a closer look

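The effect of FAKi at day 14 was compared with the mean of its effects at days 3, 7 and 21 by a contrast in edgeR, and the 5 genes of smallest p in each direction are given as log2 differences between those effects. A lower effect at day 14 was found for TXNIP (-2.536, adjusted p = 0.000311), NAT16 (-2.682), ZMAT1 (-2.411), SMC1B (-1.635) and CEP63 (-1.227). A higher effect was found for IGFBPL1 (1.496), ACTB (1.346), ZDHHC2 (1.327), SCARB1 (1.164) and TMEM106C (1.097). Adjusted p was at most 0.000884 in all 10. TXNIP, ZMAT1 and SMC1B had positive log2 fold changes at days 3 and 21, of 0.32 and 1.49, 0.63 and 1.28, and 1.1 and 1.07. TMEM106C, IGFBPL1 and ACTB had negative ones, of -0.41 and -1.1, -0.17 and -1.61, and -0.60 and -0.78. Without FAKi day 7 replicate 1, the library that resembled FAKi day 14 replicate 1, the 10 differences kept their signs, with -2.65 for TXNIP and 1.44 for ACTB. Since the 10 were chosen by the fit with this library, the kept signs are not a separate test of them. Exons of CEP63 share 27.69% of their bases with another gene on the same strand.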

How the results depend on the processing

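None of the reported counts, list medians and named genes that were recomputed changed direction under an alternative that was run. The count of 388 called genes was 632 (290 higher) with all 27 libraries in a single fit, 2918 (1488 higher and 1430 lower) by adjusted p alone, and held 161 lower genes at an adjusted p limit of 0.01. Leaving out 1 library gave 275 to 445 called genes, 97 to 183 higher and 178 to 262 lower. The count of 802 genes whose effect differed at day 14 was 1878 by adjusted p alone, 1184 without FAKi day 7 replicate 1, and 408 to 928 without 1 library, with 461 without FAKi day 14 replicate 1 and 408 without FAKi day 14 replicate 2. The cause of these differences was not tested, beyond the added or removed libraries and the changed limit themselves. DESeq2 called 387 genes at day 14. Same-numbered libraries showed no shared deviation at day 14, with correlations between -0.0258 and 0.00966. With 3 libraries per group, these correlations cannot settle whether the numbers pair the libraries. A replicate block gave 416 called genes. Genes under 1 CPM rest on few counts, and 10 of the 30 genes with the largest changes lost the call when a library was left out.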
